A study of Homo sapiens with 9 samples.

Results

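The genes described here are the nuclear genes whose products copy, transcribe, process and translate mitochondrial DNA (mtDNA). They were chosen by name, 44 genes in all, with earlier results of these data known. In the count table of 28307 genes and among the 15619 genes tested, 44 of 44 were present. By role, 6 act in mtDNA replication and maintenance and 5 in mtDNA packaging and transcription. A further 14 act in mitochondrial RNA processing, RNA stability and tRNA modification, 10 in rRNA modification and ribosome assembly, and 9 in translation.

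The cells were SW620, an established human colon cancer line labelled wild type, and all groups grew as suspension cultures in a defined medium with N2, insulin, basic FGF and EGF. One group stayed untreated, a second was given streptomycin (SM) and the last dihydrostreptomycin (DSM), each drug at 120 µM for 48 h, and each group has 3 libraries that the labels number 1 to 3. SM and DSM are aminoglycosides, antibiotics that bind the small subunit of bacterial ribosomes, and they differ in that the streptose aldehyde of SM is an alcohol in DSM. All groups are 1 cell line at 1 dose and 1 time. Levels are in CPM, the deposited read counts of poly(A) RNA scaled to a common library size. CPM is a share of a library's reads, so a change in how many cells express a gene and a change in its RNA per cell cannot be told apart. Messenger RNAs made from mtDNA itself, mtDNA copy number and protein levels were not analysed here.

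Mitochondria keep a small genome that is copied by its own replisome, in which the helicase Twinkle unwinds the duplex ahead of DNA polymerase gamma. It is transcribed by a single-subunit RNA polymerase, POLRMT, with TFAM, which also packs the genome into nucleoids, and TFB2M. The long transcripts are cut at their tRNAs, modified, stabilised by proteins such as LRPPRC and SLIRP, and read by a mitochondrial ribosome that is related to the bacterial one. In animals these factors are encoded in the nucleus, and the transcription factors NRF1 and GABP, an ETS factor, are known to act at many of their promoters.

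Total counts ranged from 39315662 in SM replicate 2 to 65562227 in untreated replicate 1. Libraries with the same number deviated from their group means together, and a second fit therefore carried the replicate number as a block, called the paired fit below. The 3 libraries numbered 1 stand apart from the others for many of these genes, and the calls are therefore also given without them. Among 9 colon epithelial markers, EPCAM lay between 414 and 463 CPM and KRT8 between 5760 and 7607 CPM, whereas KRT20 was at or below 0.622 CPM. Among 13 markers of fibroblasts, endothelium and leukocytes, COL3A1 and DCN had 0 counts in all libraries, PTPRC was at or below 0.108 CPM, and COL1A1, LUM and CD68 were detected, with up to 22.1 CPM. The summed level of these 13 was 36.5 to 44.02 CPM in untreated cells, 32.1 to 43.1 CPM with SM and 37.1 to 44.2 CPM with DSM.

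The promoters of 2 core genes of mtDNA transcription, POLRMT and TFAM, are shown because they hold NRF1 matches, and that of MTERF4 because it holds several ETS matches. The 250 bases before the RefSeq start site (GRCh38.p14) of POLRMT lie at chr19:633538-633787 on the minus strand, those of TFAM at chr10:58385160-58385409 on the plus strand, and those of MTERF4, a ribosome assembly factor with 3 ETS matches, at chr2:241102288-241102537 on the minus strand. Capitals mark matches to the NRF1 pattern, 2 runs of GCGC with any 2 bases between, and to the ETS pattern CCGGAAG on either strand, and the E-box and ARE patterns described below have no match in these windows.

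POLRMT: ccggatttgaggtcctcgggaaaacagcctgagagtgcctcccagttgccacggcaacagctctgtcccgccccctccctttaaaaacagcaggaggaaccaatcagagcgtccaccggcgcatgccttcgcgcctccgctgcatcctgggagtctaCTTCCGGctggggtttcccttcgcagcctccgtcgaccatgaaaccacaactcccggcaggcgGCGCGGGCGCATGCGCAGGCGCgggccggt

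TFAM: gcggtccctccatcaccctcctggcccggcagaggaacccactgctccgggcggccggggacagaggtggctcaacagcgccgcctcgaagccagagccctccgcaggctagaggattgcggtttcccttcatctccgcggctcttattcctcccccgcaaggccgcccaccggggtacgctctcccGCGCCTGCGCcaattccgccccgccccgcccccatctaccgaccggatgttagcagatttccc

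MTERF4: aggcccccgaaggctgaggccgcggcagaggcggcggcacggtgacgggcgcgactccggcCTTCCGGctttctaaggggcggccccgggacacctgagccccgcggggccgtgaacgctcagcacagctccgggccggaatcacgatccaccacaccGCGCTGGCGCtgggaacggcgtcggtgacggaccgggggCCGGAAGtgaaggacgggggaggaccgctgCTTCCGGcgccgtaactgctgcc

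In POLRMT, 3 NRF1 matches overlapped each other between bases -30 and -9 from the start site, and an ETS match lay at bases -93 to -87. TFAM had 1 NRF1 match, at bases -63 to -54, and 0 ETS matches. TFB2M and TEFM, also genes of the transcription class, had 0 matches to the NRF1 pattern and 0 to the ETS pattern. MTERF4 had 1 NRF1 match, at bases -92 to -83, and ETS matches starting at bases -189, -53 and -23. A RefSeq promoter was matched for 39 of the 44 genes, and the table used holds none for TWNK, TOP1MT, MTERF3, FASTKD5 and MTO1. The NRF1 pattern was found in 6 of 39 (15.4%), against 13.1% of the 11890 tested genes with a promoter. The ETS pattern was found in 15 of 39 (38.5%) against 15%. The E-box CACGTG, read by MYC and related factors, was found in 0 of 39 against 8.64%, and the pattern TGACNNNGC of antioxidant response elements in 1 of 39 (2.56%), NSUN4, against 12.2%. The patterns were searched on both strands, and a match in these windows is a description of the letters and shows no binding.

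Transcript levels spanned a wide range. To compare genes, CPM was divided by the combined length of the annotated exons of each gene's protein-coding transcripts. TUFM, the elongation factor that brings aminoacyl-tRNA to the mitochondrial ribosome, stood highest at 195 ± 4.98 CPM per kb in untreated cells (SD, n = 3). HSD17B10, a subunit of mitochondrial RNase P that is also a dehydrogenase, followed at 165 ± 5.81 CPM per kb, and SSBP1, the single-stranded DNA binding protein of the replisome, at 113 ± 6.80 CPM per kb. These 3 genes were more than 2-fold above the next, MRM2, an rRNA methyltransferase, at 50.4 ± 1.06 CPM per kb. The median of the 44 genes was 22.01 CPM per kb. At the low end were TEFM, the transcription elongation factor, at 3.08 ± 0.215 and PTCD2 at 1.55 ± 0.124 CPM per kb. PTCD1, a pentatricopeptide RNA-binding protein, was lowest at 0.108 ± 0.0152 CPM per kb. It had 23 to 43 reads per library and shares 42.0% of its exon length with a read-through gene, so its level is uncertain.

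Class medians in untreated cells lay close together on this per-kb scale. They were 23.7 CPM per kb for replication, 23.3 for RNA processing, 21.9 for ribosome assembly, 15.3 for translation and 13.4 for transcription. The spread within each class was larger than the spread between classes: the replication genes ran from POLG2 at 14.7 to SSBP1 at 113, the transcription genes from TEFM at 3.08 to POLRMT at 43.3, and the assembly genes from MTERF4 at 6.44 to MRM2 at 50.4. Within the translation class, TUFM stood at 195 CPM per kb and its exchange factor TSFM at 13.5. The initiation factor MTIF2 stood at 38.2 and MTIF3 at 15.9, and the elongation factor GFM1 at 24.1. Among the release and recycling factors, GFM2 was at 15.3, MTRF1L at 14.5, MTRF1 at 4.50 and MRRF at 4.13. For multi-isoform genes the exon sum overstates the length of the transcripts present, which was not corrected.

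**Figure D1:**
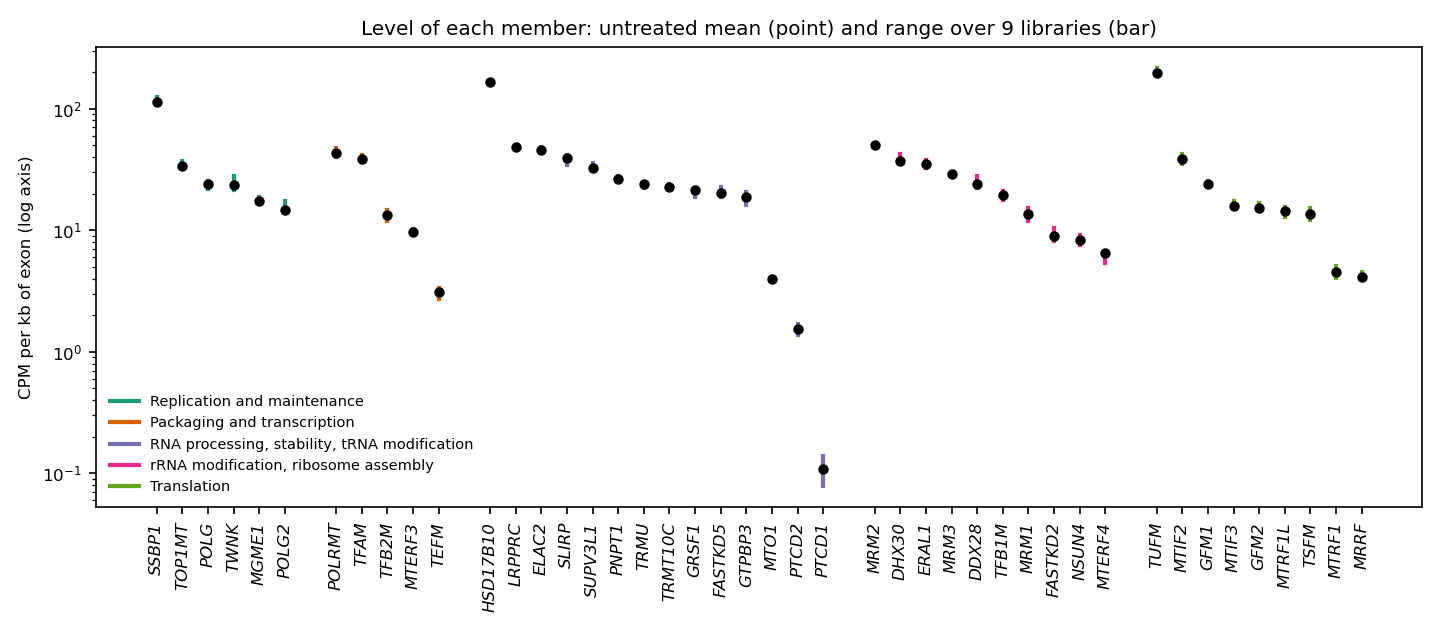
Level of each of the 44 genes by role, as CPM per kb of exon on a log axis. Points are untreated means and bars run from the lowest to the highest of the 9 libraries. The bars are short beside the distances between genes, from TUFM at 195 to PTCD2 at 1.55 CPM per kb. PTCD1, whose counts are uncertain, lies lower at 0.108.

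The first comparison asked whether these genes differ between SM-treated and untreated cells. TWNK, which encodes the Twinkle helicase, was higher with SM by 1.13-fold and was the one gene of the 44 that passed the test (adjusted p under 0.05 over all genes tested), in the paired fit. The other 43 did not pass in either fit. TWNK measured 81.9, 96.0 and 91.3 CPM in untreated replicates 1, 2 and 3, and 91.3, 106 and 108 CPM in SM replicates 1, 2 and 3. SM was the higher library of every pair, but the groups overlapped, since SM replicate 1 lay below untreated replicate 2.

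The pairs of TWNK differed by 0.16, 0.15 and 0.24 on the log2 scale. The paired fit gave a log2 fold change of 0.18 (SE 0.034), a fold of 1.13 (95% interval 1.08 to 1.19) and an edgeR adjusted p of 0.00264. Without the block the estimate was the same, 0.18, with an SE of 0.086 and an adjusted p of 1.00. Leaving out 1 library at a time, the paired call held in 8 of 9 cases, which include the DSM libraries outside this comparison. It was lost without untreated replicate 3 (log2 fold change 0.16, adjusted p = 0.0802, range over all alternatives 2.86e-04 to 1.00). Without the 3 libraries numbered 1 the log2 fold change was 0.19 (adjusted p = 0.0202). Of the 428 genes that passed in the paired fit, 288 had a larger absolute log2 fold change than TWNK.

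TWNK lies on chromosome 10 at positions 100987543 to 100994403 on the plus strand (GRCh38.p14). Its exons overlap those of MRPL43 on the opposite strand over 149 bases, 3.9% of its exon length, and the strand setting of the counting is not given in the sources used here. MRPL43, a protein of the large mitochondrial ribosomal subunit, had a paired log2 fold change of -0.04 (adjusted p = 0.782) with SM, and LZTS2, the next gene, one of 0.03 (adjusted p = 0.808).

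Without the block edgeR called 0 of the 44 genes against 3 of 15619 genes tested (0.0192%), and 0 of the 44 had an unadjusted p under 0.05. DESeq2 and limma voom also called 0 of the 44, against 14 and 3 of all genes. With the block the 1 call of 44 stood against 428 of 15619 (2.74%), a share near the background. DESeq2 and voom with the block each called the same 1 gene, TWNK, against 385 and 438 of all genes. In the paired fit 4 of the 44 had an unadjusted p under 0.05, against 14.8% of all genes. No gene of the 44 had SM libraries that all lay above or all below the untreated ones, which held for 6.74% of all genes tested. The median paired log2 fold change of the 44 was 0.017, with 29 positive and 15 negative, against -0.0009 for all genes.

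Beside TWNK, the replication genes had small differences with SM. TOP1MT, the mitochondrial topoisomerase, measured 80.1, 79.8 and 82.6 CPM untreated and 81.9, 85.8 and 88.1 CPM with SM. Its SM library was higher in every pair, at a paired log2 fold change of 0.08 (SE 0.035, adjusted p = 0.309). POLG, the catalytic subunit of the polymerase, measured 101, 114 and 110 CPM untreated and 104, 108 and 103 CPM with SM. It had a log2 fold change of -0.04 (SE 0.036, adjusted p = 0.632), with the pairs going both ways. POLG2, SSBP1 and the exonuclease gene MGME1 lay between 0.0039 and 0.047 on the log2 scale.

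**Figure D2:**
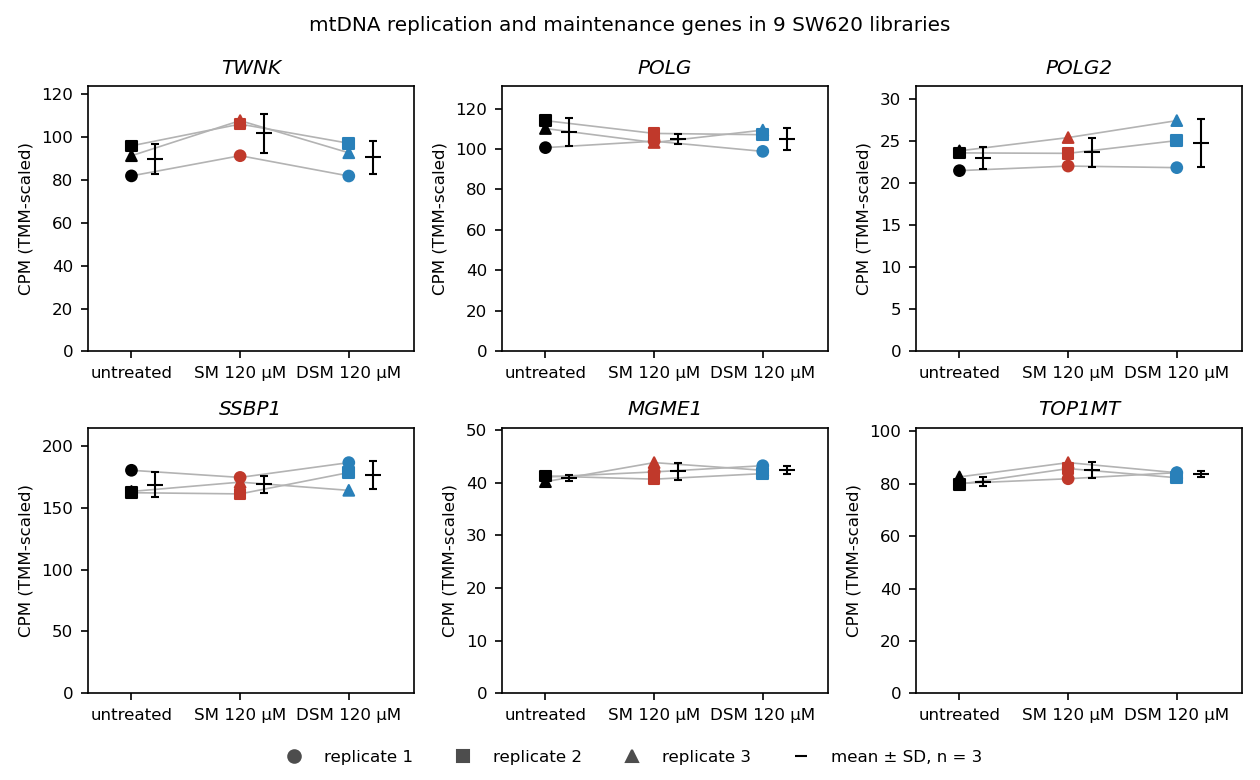
CPM of the 6 replication and maintenance genes in each library, with the axis from 0. Grey lines join libraries of the same replicate number and the offset marks give the mean ± SD of 3 libraries; TWNK lines rise from untreated to SM and return with DSM in each replicate, and the other 5 genes did not pass.

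The transcription genes TFAM and POLRMT differed from untreated cells by 0.06 (SE 0.035, adjusted p = 0.483) and 0.02 (SE 0.033, adjusted p = 0.802) with SM, on the log2 scale. TFAM measured 203.03, 213 and 207 CPM untreated and 202.6, 222 and 224 CPM with SM, and POLRMT 159, 171 and 168 against 159, 183 and 165 CPM. The groups overlapped for both genes. The 5 genes of the class lay between -0.0076 (TEFM) and 0.057 (TFAM), and 0 of 5 passed.

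Among the 14 RNA processing genes, SUPV3L1, the helicase of the mitochondrial RNA degradosome, had the smallest p with SM. It measured 76.5, 83.3 and 83.5 CPM untreated and 80.9, 87.1 and 89.6 CPM with SM, a log2 fold change of 0.08 (SE 0.036, adjusted p = 0.275). The SM library was higher in all 3 pairs. LRPPRC, which binds and stabilises mitochondrial mRNAs together with SLIRP, measured 321, 328 and 315 CPM untreated and 327, 325 and 322 CPM with SM. Its log2 fold change was 0.02 (SE 0.031, adjusted p = 0.877). Leaving out PTCD1, the class ran from -0.037 (PTCD2) to 0.083 (SUPV3L1), and 0 of 14 passed.

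TFB1M, the dimethyltransferase of the small-subunit rRNA, had the lowest value of the 44 with SM. It measured 26.5, 29.3 and 28.1 CPM untreated and 25.6, 25.3 and 26.5 CPM with SM. SM was lower in every pair, at -0.11 on the log2 scale (SE 0.051), which did not pass (adjusted p = 0.318). Its exons overlap those of TIAM2 on the opposite strand over 15.1% of their length. The other assembly genes ran up to FASTKD2 at 0.079, with 5 positive and 5 negative in the class of 10 and 0 passing. In the translation class 0 of 9 passed, and the log2 fold changes ran from -0.034 (GFM2) to 0.064 (MTIF2). TUFM measured 400, 416 and 397 CPM untreated and 390, 448 and 401 CPM with SM (log2 fold change 0.03, SE 0.034, adjusted p = 0.778), and GFM1 98.9, 101 and 93.5 against 98.1, 96.2 and 98.0 CPM (log2 fold change -0.0017, SE 0.036, adjusted p = 0.991).

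The paired 95% intervals show what size of change remained possible. For SM against untreated the interval of 43 of the 44 genes lay within 1.2-fold in either direction, and the median half-width was 0.081 on the log2 scale. Without the block the interval of 39 of 44 lay within 1.2-fold, with a median half-width of 0.14. PTCD1 was the exception in the paired fit. It had 23 to 43 reads per library and an interval of 0.79- to 1.66-fold, and 42.0% of its exon length is shared with the read-through gene ATP5MF-PTCD1, so its counts are uncertain.

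**Figure D3:**
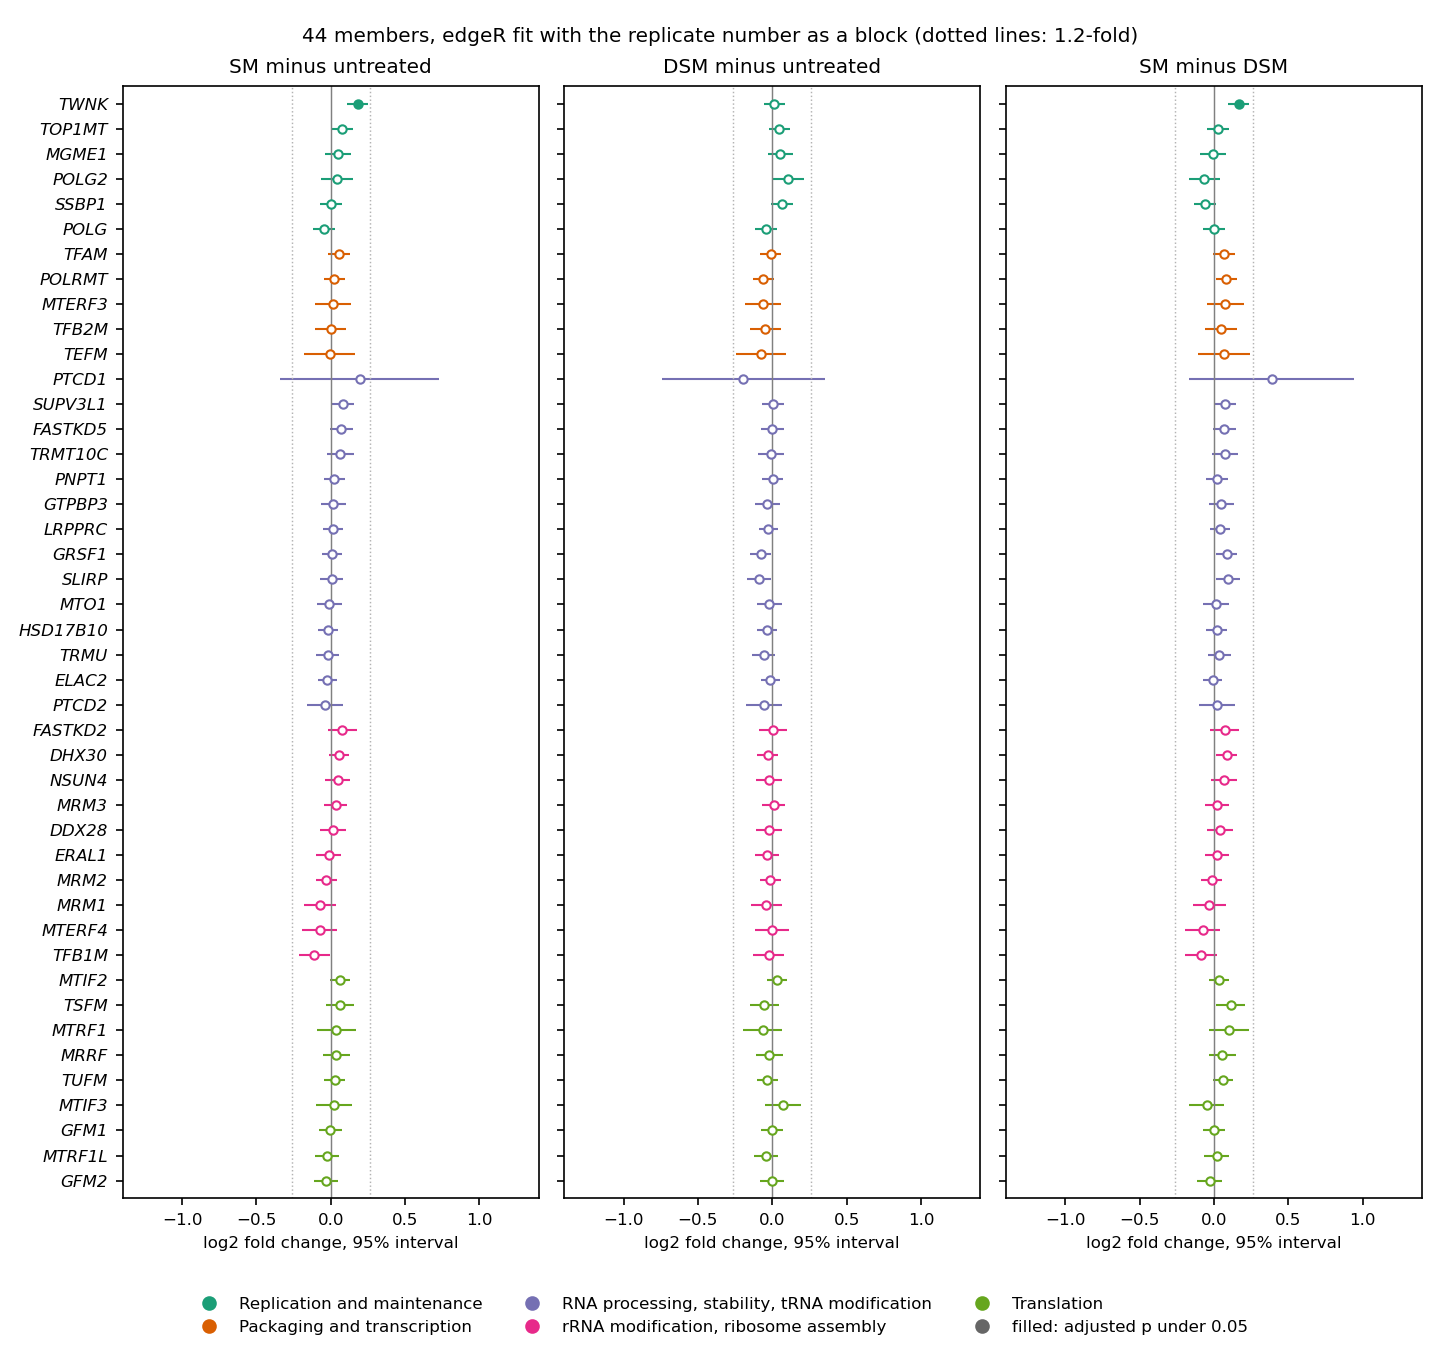
Log2 fold changes of the 44 genes with 95% intervals in the paired fit, for SM against untreated, DSM against untreated and SM against DSM, coloured by role. The filled points are TWNK in the left and right panels; dotted lines mark 1.2-fold, and only the PTCD1 intervals cross them.

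The second comparison put DSM against untreated cells. None of the 44 genes passed, with or without the block. DSM left TWNK at 81.9, 97.1 and 92.7 CPM in replicates 1, 2 and 3, close to the untreated library of the same number in each pair, at a paired log2 fold change of 0.013 (SE 0.034, 95% interval 0.961- to 1.06-fold, adjusted p = 0.999). All 15619 genes gave 0 calls in edgeR (0% in both fits), and 0 of the 44 had an unadjusted p under 0.05 without the block and 3 with it, where 0.659% and 4.16% of all genes did. DESeq2 and voom called 0 of the 44 and 0 of all genes in both fits. The paired intervals of 43 of 44 genes lay within 1.2-fold, again with PTCD1 as the exception, and 38 of 44 did without the block.

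The 3 genes with the smallest p for DSM were SLIRP, GRSF1 and POLG2. SLIRP, the partner of LRPPRC, measured 60.2, 58.2 and 55.7 CPM untreated and 55.5, 57.5 and 50.8 CPM with DSM, a paired log2 fold change of -0.09 (SE 0.038, adjusted p = 0.999). Its exons overlap those of C14orf178 on the same strand over 18.7% of their length, and of SNW1 on the opposite strand over 8.0%. GRSF1, an RNA-binding protein of mitochondrial RNA granules, measured 140, 151 and 143 CPM untreated and 136, 148 and 127 CPM with DSM, at -0.08 (SE 0.034, adjusted p = 0.999). Both were lower with DSM in every pair and both groups overlapped. POLG2, the accessory subunit of the polymerase, measured 21.5, 23.6 and 23.8 CPM untreated and 21.8, 25.1 and 27.4 CPM with DSM, at 0.11 (SE 0.051, adjusted p = 0.999), and was higher in every pair.

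MGME1, which trims mtDNA ends, was the one gene of the 44 whose groups did not overlap for DSM. It measured 41.1, 41.3 and 40.2 CPM untreated and 43.2, 41.7 and 42.4 CPM with DSM, a paired log2 fold change of 0.06 (SE 0.042, adjusted p = 0.999). Groups that did not overlap were found for 4.42% of all genes tested in this comparison, against 1 of 44 here, and MGME1 is named for this after its values were seen.

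The signs of the DSM values are given by class, with 0 genes passing in each and no test of a difference between classes; 49.6% of all genes tested had a positive value. Of the replication genes 5 of 6 had positive values, with a median of 0.052, while all 5 transcription genes had negative ones, from -0.075 (TEFM) to -0.011 (TFAM), with POLRMT at -0.06 (SE 0.033, adjusted p = 0.999) and TFAM at an SE of 0.035 (adjusted p = 0.999). The RNA processing genes had 11 of 14 negative values, the assembly genes 8 of 10 and the translation genes 7 of 9. POLG was at -0.04 (SE 0.036), LRPPRC at -0.03 (SE 0.031), TUFM at -0.03 (SE 0.034) and GFM1 at -0.0023 (SE 0.036), each with an adjusted p of 0.999. The median over the 44 genes was -0.022, against -0.0004 over all genes tested.

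The third comparison set the 2 compounds, which differ by the aldehyde or alcohol of the streptose, side by side at the same dose and time. TWNK was higher with SM than with DSM by 1.12-fold (95% interval 1.07 to 1.18), and the other 43 genes did not pass. Its pairs differed by 0.16, 0.13 and 0.22 on the log2 scale, at a paired log2 fold change of 0.17 (SE 0.034, adjusted p = 0.00438). Without the block the same difference of 0.17 had an SE of 0.086 and an adjusted p of 1.00. SM replicate 1, at 91.3 CPM, lay below DSM replicates 2 and 3, so the groups overlapped.

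The call on TWNK was lost without SM replicate 3 (log2 fold change 0.14, adjusted p = 0.0518, range over all alternatives 9.51e-04 to 1.00). It held with any other 1 library left out, which includes the untreated libraries outside this comparison. Without the 3 libraries numbered 1 the difference was 0.17 (adjusted p = 0.0305). The 1 call of 44 stood against 606 of 15619 genes tested (3.88%) in the paired fit, of which 457 had a larger absolute log2 fold change. Without the block edgeR called 0 of the 44 and 0 of all genes (0%), and 0 of the 44 had an unadjusted p under 0.05. DESeq2 and voom without the block called 0 of the 44, against 11 and 0 of all genes. With the block 7 of the 44 had an unadjusted p under 0.05, against 16.2% of all genes. This comparison shares its SM libraries with the first and its DSM libraries with the second.

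Of the 44 genes, 33 had a positive SM minus DSM difference, with a median of 0.038 against -0.00001 over all genes tested. Higher with SM in all 3 pairs were 15 of 44 genes (34.1%), against 16.3% of all genes tested, and lower in all 3 pairs was 1 of 44, MRM1, against 16.2%. By class the 15 were 1 of 6 replication genes (TWNK), 1 of 5 transcription genes (POLRMT) and 6 of 14 RNA processing genes (FASTKD5, GRSF1, LRPPRC, SLIRP, SUPV3L1 and TRMU). The others were 3 of 10 assembly genes (DHX30, FASTKD2 and NSUN4) and 4 of 9 translation genes (MTIF2, MTRF1, TSFM and TUFM). Negative SM minus DSM values were found for 4 of 6 replication, 0 of 5 transcription, 1 of 14 RNA processing, 4 of 10 assembly and 2 of 9 translation genes. A difference between classes was not tested. Against untreated cells, 8 of 44 were higher with SM in all 3 pairs (18.2%, all genes 17.4%) and 2 lower (4.55%, all genes 18.9%). With DSM 6 of 44 were higher (13.6%, all genes 14.3%) and 13 lower (29.5%, all genes 15.1%). These counts describe direction without size, and only TWNK passed the test among them.

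After TWNK, the smallest p for SM against DSM belonged to TSFM and PTCD1 without the block and to GRSF1 and DHX30 with it. TSFM measured 37.7, 42.5 and 37.8 CPM with SM and 33.7, 38.3 and 36.8 CPM with DSM, which differed by 0.11 on the log2 scale (SE 0.047, adjusted p = 0.209). Its exons overlap those of another annotated gene on the same strand over 11.2% of their length. GRSF1 measured 143, 151 and 142 CPM against 136, 148 and 127 CPM, at 0.09 (SE 0.034, adjusted p = 0.181). DHX30, a helicase of ribosome assembly, measured 163, 191 and 165 CPM with SM and 157, 168 and 162 CPM with DSM, at 0.09 (SE 0.034, adjusted p = 0.186). PTCD1 measured 0.677, 0.584 and 0.781 CPM with SM and 0.558, 0.588 and 0.436 CPM with DSM, at 0.39 (SE 0.27, 95% interval 0.893- to 1.93-fold, adjusted p = 0.523).

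The transcription genes all had positive SM minus DSM values, from 0.048 (TFB2M) to 0.085 (POLRMT), with 0 of 5 passing. POLRMT measured 159, 183 and 165 CPM with SM and 154, 163 and 161 CPM with DSM (log2 fold change 0.08, SE 0.033, adjusted p = 0.189), and TFAM 202.6, 222 and 224 CPM against 205, 216 and 198 CPM (0.07, SE 0.035, adjusted p = 0.348). POLG (-0.00085, SE 0.036, adjusted p = 0.994), LRPPRC (0.04, SE 0.031, adjusted p = 0.579), TUFM (0.06, SE 0.034, adjusted p = 0.390) and GFM1 (0.00066, SE 0.036, adjusted p = 0.995) likewise did not pass. The paired intervals of 43 of the 44 genes lay within 1.2-fold for SM against DSM, which leaves differences of up to that size between the compounds possible for the genes that did not pass.

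More of these genes differed by replicate number than by compound. In an F test of the replicate number with group as a term, 24 of 44 genes passed (54.5%), against 40.7% of all genes tested. In 18 of the 24 the fitted level of replicate 1 lay below the mean of replicates 2 and 3, and in 6 above it. Over all genes that passed, 3050 were lower and 3310 higher. This sign does not hold for every library, and the test also counts differences between replicates 2 and 3. Counted by class, 4 of 6 replication genes passed, 2 of 5 transcription genes, 8 of 14 RNA processing genes, 5 of 10 assembly genes and 5 of 9 translation genes. Without untreated replicate 1 the count of 24 fell to 14, and the count over all genes tested fell from 6360 to 4546. The labels do not say what a number shares.

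GTPBP3, a tRNA-modifying GTPase, had the largest such difference. Its libraries numbered 1 held 47.8, 46.2 and 48.0 CPM (untreated, SM, DSM) and the other 6 libraries 52.4 to 59.1 CPM, a difference of -0.26 on the log2 scale (edgeR adjusted p = 1.12e-05). TWNK followed at -0.21 (adjusted p = 1.49e-05), a larger step than either of its SM differences. The initiation factor gene MTIF2 (-0.19), FASTKD2 (-0.19) and POLG2 (-0.19) were also lower in replicate 1. MTRF1 (0.19) and MTRF1L (0.15), which encode peptide chain release factors, FASTKD5 (0.13), SSBP1 (0.11) and the tRNA 3' processing nuclease gene ELAC2 (0.096) were higher in replicate 1. MTRF1L shares 40.5% of its exon length with an antisense transcript. From the lowest to the highest of the 9 libraries the 44 genes moved little, from 1.06-fold for MRM3 to 1.32-fold for TWNK and 1.79-fold for PTCD1.

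**Figure D4:**
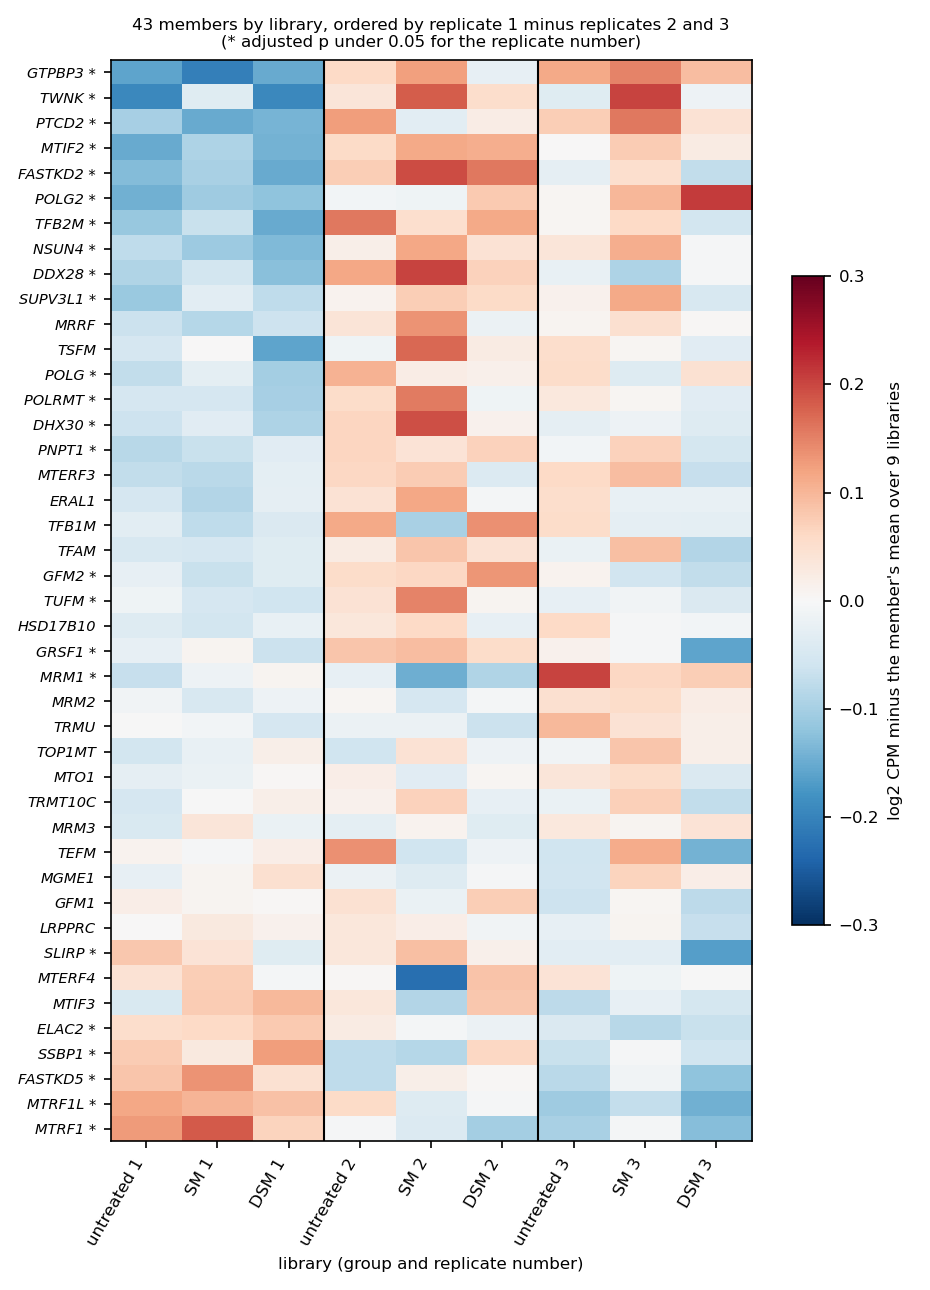
Each cell is the log2 CPM of a gene in 1 library minus the mean of that gene over 9 libraries, for 43 genes without PTCD1, with libraries ordered by replicate number. Genes at the top are lower (blue) in the 3 libraries numbered 1 and those at the bottom higher (red), and the deviations reach 0.226.

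Other genes of the pathway were taken from lists of names, also chosen with earlier results of these data known. Of 50 further mitochondrial gene expression factors tested, 0 passed in any of the 3 comparisons in either fit. In the paired fit 9 had an unadjusted p under 0.05 for SM against untreated, 1 for DSM against untreated and 7 for SM against DSM, where 14.8%, 4.16% and 16.2% of all genes did. Without the block these counts were 1, 0 and 1. TBRG4, a FASTK family RNA-binding protein, averaged 162 CPM untreated and 164 CPM with SM (log2 fold change 0.02, adjusted p = 0.886), and OXA1L, the inner membrane insertase, 123 and 121 CPM (-0.03, adjusted p = 0.759). Of the proteins of the small mitochondrial ribosomal subunit 0 of 29 passed in the paired fit with SM against untreated and 1 of 29 in SM against DSM. In these comparisons 2.74% and 3.88% of all genes passed. The 1 gene was MRPS35 (0.13, adjusted p = 0.0232), named after its value was seen, and without the block 0 of 29 passed. Of the large subunit 0 of 49 passed in either comparison.

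Nuclear regulators of mitochondrial gene expression did include genes that passed. In the paired fit 3 of 14 were higher with SM than without and 3 of 14 higher than with DSM. They were the same 3 genes, and 0 were lower. Of all genes tested, 2.74% and 3.88% passed in either direction. The list was chosen with earlier results of these data known, so these shares do not test it. For SM against untreated cells 10 of the 14 values were positive and 4 negative. NRF1 itself was at -0.0033 (SE 0.053, adjusted p = 0.987). The GABP genes GABPA, GABPB1 and GABPB2 were at -0.09 (SE 0.042, adjusted p = 0.32), 0.0003 (SE 0.051) and -0.03 (SE 0.051), and did not pass. MYC, a growth regulator that binds E-boxes, averaged 686 ± 78.5 CPM untreated, 916 ± 159 CPM with SM and 682 ± 63.3 CPM with DSM (SD, n = 3), at a log2 fold change of 0.41 (SE 0.038, edgeR adjusted p = 3.66e-07) with SM. PPARGC1B, a coactivator of mitochondrial biogenesis, averaged 14.5 ± 2.74, 17.9 ± 2.26 and 14.6 ± 1.91 CPM, at 0.30 (SE 0.062, adjusted p = 0.00540). TFE3, a lysosome and stress factor, averaged 87.8 ± 2.36, 98.0 ± 3.66 and 87.0 ± 1.76 CPM, at 0.16 (SE 0.036, adjusted p = 0.0157). None of these passed without the block (adjusted p = 1.00 each).

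Among 12 nucleoid proteins and matrix proteases tested, 0 passed in the paired fit with SM against untreated and 1 in SM against DSM. Of all genes tested, 2.74% and 3.88% passed in these comparisons. LONP1, the matrix protease known to degrade TFAM, averaged 237 ± 45.2 CPM with SM, 207 ± 21.8 CPM with DSM and 217 ± 27.8 CPM untreated (SD, n = 3). Its paired log2 fold change was 0.18 (SE 0.042, adjusted p = 0.0117) against DSM and 0.12 (SE 0.042, adjusted p = 0.132) against untreated cells. Without the block the difference from DSM did not pass (SE 0.15, adjusted p = 1.00).

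In the same paired fit 2 of the 9 epithelial markers passed for SM against untreated, where 2.74% of all genes did. VIL1 fell by 0.14 (adjusted p = 0.0119) and KRT19 by 0.18 (adjusted p = 0.00173) against untreated cells, and 0 passed as higher. All 9 markers had negative values against untreated cells, with a median of -0.14. For SM against DSM 8 of 9 had negative values and 3 of 9 passed, all lower with SM, where 3.88% of all genes passed. CDH1 was among these 3 (adjusted p = 0.0396). Of the 7 tested markers of other cell types LUM was lower by both comparisons (-0.41, adjusted p = 0.0271, against untreated). Without the block 0 of these markers passed. The part of these shifts in the TWNK result was not tested.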

How the data were processed

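The members and lists were chosen with earlier results of these data known. Per the labels' protocols, TRIzol RNA was made into NuGEN Universal Plus mRNA-seq libraries. Per the submitters' processing notes, the tools included featureCounts 2.0.0, TopHat2 2.1.1 and cutadapt 3.4, and the build was hg38. Not given in the sources used here are the annotation, strand setting and treatment of multi-mapping reads. The authors deposited raw read counts per gene, without normalization, which were tested here. Their normalized table was not used.

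In R 4.3.3, edgeR 4.0.16 kept genes by filterByExpr (minimum count 10, minimum total 15), scaled libraries by TMM (factors 0.981 to 1.02) and fitted all 9 libraries in a robust quasi-likelihood model, with group alone or with the replicate number as a block. Tests were two-sided, with Benjamini-Hochberg adjustment over all 15619 genes at 0.05. The labels give the replicate numbers and the design text calls the replicates biological. Deviations from the group means correlated at 0.227 to 0.582 in all 9 same-numbered pairs of libraries, above 0.1, and at -0.404 to 0.161 in the other 18, so the numbers were taken to pair the libraries. No replicates agreed within sampling noise. All 44 members were accounted for. Fold changes, SEs and adjusted p are given for members that passed in either fit, for the 3 with the smallest p in each comparison and fit, and for TFAM, POLRMT, TWNK, POLG, LRPPRC, TUFM and GFM1. Of other lists up to 4 genes that passed are named, or the 2 most abundant. Exon lengths are unions of the exons of protein-coding transcripts in the GENCODE 29 basic annotation. Coordinates and promoters are RefSeq's on GRCh38.p14. The tests were tried on simulated counts. Alternatives were other scaling, filters, DESeq2 1.42.0, limma 3.58.1 voom, no robust estimation, only the 2 groups compared, and leaving out each library. Leaving out the 3 libraries numbered 1 was added after seeing the data.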

Additional observations from a re-analysis of the deposited data

Results flagged for a closer look

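The response of TWNK differed between the compounds. Its SM effect minus its DSM effect was 0.168 on the log2 scale (SE 0.034), tested directly as SM against DSM in the paired edgeR fit (adjusted p = 0.00438), and SM was higher in 3 of 3 pairs. The same difference did not pass without the block (adjusted p = 1.00), and 457 of the 606 genes that passed had a larger absolute difference.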

How the results depend on the processing

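Without the block, 0 members passed in any comparison under other scaling, filters, tools or samples. Adding the replicate block gave 1 for SM against untreated and 1 for SM against DSM, and removing it from the paired fits gave 0 in both. With 1 library left out, the paired counts ranged from 0 to 1 in these comparisons. The count by replicate number ranged from 14 to 26, where that over all genes ranged from 4546 to 6736. The 3 libraries numbered 1, left out as a choice made after seeing the data, did not decide the TWNK call (0.19, adjusted p = 0.0202, against untreated cells and adjusted p = 0.0305 against DSM). Among the 44 members the block changed no other call, and the calls on genes of other lists and on markers were made with the block alone.

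Of the members given whatever their call, some near 0 changed sign in the fit without the block, and none of them passed under any setting. GFM1 turned to 0.00217 (library totals) and 0.00216 (without the libraries numbered 1) for SM against untreated, to 0.00543, 0.00050 (stricter filter) and 0.00719 in the same order for DSM, and to 0.00032 (voom) and 0.00066 (replicate block) for SM against DSM. With 1 library left out, the log2 fold changes for SM against untreated ranged from -0.035 to 0.070 for POLRMT, -0.033 to 0.069 for TUFM and -0.033 to 0.019 for GFM1. For DSM they ranged from -0.049 to 0.083 for TWNK (-0.0028 to 0.023 in the paired fit), -0.045 to 0.019 for TFAM, -0.093 to 0.00061 for POLG and -0.038 to 0.036 for GFM1. For SM against DSM they ranged from -0.045 to 0.028 for POLG and -0.039 to 0.035 for GFM1. The cause was not tested. Reads per library were 23 to 43 for PTCD1, with a paired SE of 0.26 for SM against untreated, 307 to 527 for TEFM (SE 0.082) and 12801 to 20653 for LRPPRC (SE 0.031).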
